A study of Mus musculus with 6 samples.

Results

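The insulin-like growth factor (IGF) axis was followed in RNA-Seq of mouse skin fibroblasts (MSFs) through 10 genes of the 22162 in the deposited table. They are the ligand genes Igf1 and Igf2, the receptor genes Igf1r and Igf2r, and the binding protein genes Igfbp2, Igfbp3, Igfbp4, Igfbp5, Igfbp6 and Igfbp7, each taken as the row whose gene name equals the listed symbol. All 10 were found.

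IGF1 and IGF2 are secreted peptides that activate the IGF1 receptor, a tyrosine kinase that signals through insulin receptor substrate adaptors to PI3K and AKT and promotes growth and survival. The IGF2 receptor, which is also the cation-independent mannose-6-phosphate receptor, takes IGF2 up for breakdown in lysosomes. The IGF binding proteins hold the ligands outside the cell, where they can keep them from the receptor or deliver them, and proteases release the ligands by cutting them. Fibroblasts of the skin are known as a source of ligands and binding proteins alike, and several binding proteins have been described among the secreted factors of senescent cells.

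The MSFs were primary cells of FVB/N background from the dorsal skin of a female FASST mouse, grown at 3% oxygen. Both groups carried the same alleles, a tamoxifen-inducible Cre under the pro-alpha 2(I) collagen promoter, which limits it to mesenchymal cells, and a p27Kip1-IRES-GFP cassette behind a lox-stop-lox at ROSA26. The sequenced poly(A) RNA came from 3 samples that had received 10 µM tamoxifen (TAM) for 48 h, labelled senescent, and from 3 that had received only its vehicle ethanol (EtOH), labelled non-senescent. Activation of the allele and exposure to TAM were in the same 3 libraries, so their parts in a difference cannot be told apart. Nothing states that the 3 samples of a group came from separate animals or cultures, so p-values measure only the spread between these samples, which may be technical.

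Values are normalized counts, as deposited, and summed to between 14952367 and 17314953 per library. The smallest values above 0 were between 0.36 and 0.89 normalized counts, so a value below about 10 rests on few reads. Taken per 1000000 of the mean library sum, 1 count (1 c.p.m.) was 16.2 normalized counts, and limma was run over the 11877 genes that reached this level in 3 or more of the 6 libraries, on log2(normalized counts + 1). A log2 fold change here is a difference of mean logs, TAM minus EtOH, and the added 1 makes it smaller for low genes. All 10 IGF axis genes passed this filter, but Igf2 passed through the TAM libraries alone, and a gene that passes so had to be higher in them. Same-numbered EtOH and TAM libraries deviated from their group means together, so a fit with the replicate number as a block is given wherever it changed a call.

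Cdkn1b, the mouse gene of p27Kip1, had 1427, 3074 and 1853 normalized counts in EtOH replicates 1, 2 and 3 and 1699, 1520 and 1630 in the TAM replicates, with a log2 fold change of −0.32 (adjusted p = 0.677, limma). Whether reads of the ROSA26 cassette were counted on this row is not stated, so it may not measure the activation, and groups are named as labelled. Fibroblast markers dominated every library, with 10 markers such as Col1a1, Dcn and Vim summing to 1962100 to 2082600 normalized counts in the EtOH and 1278800 to 1594300 in the TAM libraries. Markers of other cells were low, with sums of 65.7 to 126 normalized counts for 8 keratinocyte genes, 166 to 517 for 7 macrophage genes, 12.2 to 338 for 5 adipocyte genes and 134 to 255 for 4 melanocyte genes, and Krt1, Emr1 and Lep were at 0 throughout. The 7 endothelial genes summed to 92.5 to 241 in the EtOH and 24.6 to 45.2 in the TAM libraries, a difference carried by Kdr, with Pecam1 between 2.83 and 11.3 normalized counts in every library. Only Kdr of these 7 was tested, and it was lower in the TAM libraries. Kdr passed an adjusted p of 0.05 with the replicate block alone (limma), beside 1.62% of all genes tested. For 4 Schwann cell genes the sums were 32.4 to 48.9 in the EtOH and 18.4 to 27.2 in the TAM libraries. Of 5 smooth muscle and pericyte genes, 4 had a positive log2 fold change. Before adjustment 3 were higher in the TAM libraries (raw p below 0.05), beside 6.67% of all genes tested, while 0 passed an adjusted p of 0.05 (limma). Cnn1 had 856, 523 and 551 normalized counts in EtOH replicates 1, 2 and 3 and 1080, 6645 and 1749 in the TAM replicates, and Myh11 had 227, 94.4 and 163 against 523, 1568 and 479. The groups of the other genes overlapped. Acta2 had 55325, 16500 and 28438 against 25369, 99588 and 32774, and Rgs5 had 13.07, 6.62 and 28.35 against 44.28, 60.31 and 27.35. Cspg4 had 233, 680 and 379 against 102, 787 and 198, lower in TAM replicates 1 and 3. TAM replicate 2 stood apart, with 108650 normalized counts over these 5 genes, nearly all Acta2, against 17804 to 56654 in the other libraries, with the lowest Col3a1, Dcn and Lum but the highest Fn1 and Thy1 among the fibroblast markers, and with 1421 over 7 skeletal muscle genes against 23.8 to 65.8, nearly all of it Acta1 while Ckm stayed at 0. Results of the IGF axis genes are therefore also given without replicate 2 where that moved them, and the part of these markers in the results was not tested.

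Promoter sequences are shown for the 4 genes whose groups did not overlap, as the place where their transcription starts, since the gene-level table holds no sequence. All 10 genes were matched to RefSeq start sites of build GRCm38.p6, 14 sites in all, of which Igf2 has 4 and Igfbp2 has 2. Each run holds the 100 bases before a start site, 5′ to 3′ on the strand of the gene, and capitals mark matches, on either strand, to the TATA box TATAAA, the GC box GGGCGG or the CCAAT box CCAAT. Among the same windows of all 32851 promoters, 5.56% held the TATA box letters, 24.7% the GC box letters and 18.9% the CCAAT box letters. Igf2, which is imprinted and transcribed from several promoters, has its start sites on the minus strand. The windows lie at chr7:142666817-142666916, chr7:142661272-142661371, chr7:142658805-142658904 and chr7:142657497-142657596, in the order shown.
Igf2 start site 1: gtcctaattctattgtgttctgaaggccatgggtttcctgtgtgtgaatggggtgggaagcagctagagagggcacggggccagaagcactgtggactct
Igf2 start site 2: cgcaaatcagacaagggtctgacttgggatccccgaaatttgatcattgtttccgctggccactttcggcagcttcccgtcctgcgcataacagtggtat
Igf2 start site 3: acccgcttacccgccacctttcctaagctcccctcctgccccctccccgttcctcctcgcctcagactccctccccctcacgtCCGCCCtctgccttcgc
Igf2 start site 4: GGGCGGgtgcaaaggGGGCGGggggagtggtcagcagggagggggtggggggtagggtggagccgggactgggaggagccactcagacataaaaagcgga
The windows of Igf2 start sites 3 and 4, each 69.0% G or C, held 1 and 2 GC boxes, and those of start sites 1 and 2, at 54.0% and 52.0%, held none of the 3 motifs. A count summed over the gene cannot say from which of these sites the transcripts came. The plus-strand windows of Igfbp6 at chr15:102144086-102144185, Igfbp4 at chr11:99041144-99041243 and the first Igfbp2 start at chr1:72824380-72824479 follow.
Igfbp6: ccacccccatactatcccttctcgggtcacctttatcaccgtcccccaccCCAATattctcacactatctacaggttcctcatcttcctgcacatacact
Igfbp4: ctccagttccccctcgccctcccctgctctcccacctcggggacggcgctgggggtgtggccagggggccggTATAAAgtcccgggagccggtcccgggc
Igfbp2 start site 1: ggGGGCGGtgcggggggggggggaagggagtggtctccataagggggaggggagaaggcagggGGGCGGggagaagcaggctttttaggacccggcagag
Igfbp6 held 1 CCAAT box, Igfbp4 held 1 TATA box and Igfbp2 held 2 GC boxes at this start. The window of the second Igfbp2 start, not shown, held none of the 3 motifs. GC box letters were thus at some but not all starts of both genes that were higher in the TAM libraries. They were in neither window of the genes that were lower, but these have 1 start each and so fewer windows. The letters were also in the windows of Igf1r, Igf2r and Igfbp7, whose groups overlapped. A match is a description of letters and not a site of binding.

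Of the 10 IGF axis genes, 1 passed an adjusted p of 0.05 (Igf2, higher in the TAM libraries), beside 0.244% of all genes tested, and with the replicate block 2 did (Igf2 and Igfbp6, the latter lower), beside 1.62%. Igf2 was among the genes tested through its TAM libraries alone, so its direction there was fixed by the filter. Its place in these counts is therefore no separate support for a rise. Without a filter the adjusted p of Igf2 was 0.0458 (limma). Before adjustment a p below 0.05 was reached by 2 genes higher in the TAM libraries, Igf2 and Igfbp2, beside 6.67% of all genes, and by 2 genes lower in them, Igfbp4 and Igfbp6, beside 6.7% of all genes. For these 4 genes the TAM values lay all above or all below the EtOH values, as they did for 20.6% of all genes tested. In 7 of the 10 genes, Igf2 and the 6 binding proteins, all 3 same-numbered pairs differed in the same direction, against 41.9% of all genes. The median log2 fold change of the 10 genes was 0.09, beside −0.03 over all genes tested. Without replicate 2, 0 of the 10 genes passed an adjusted p of 0.05 (limma), 3 were higher with a raw p below 0.05, beside 9.48% of all genes, and 2 lower, beside 10.8%, with Igfbp7 added to the 4 genes named. The groups of 5 genes then did not overlap, beside 54.3% of all genes, with 2 libraries in each group. The count of genes passing in the whole table was 29 without and 192 with the block. With the block, a raw p below 0.05 (limma) was reached by 4 of the 10 genes higher, beside 8.64% of all genes, and by 2 lower, beside 8.32%.

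**Figure D1:**
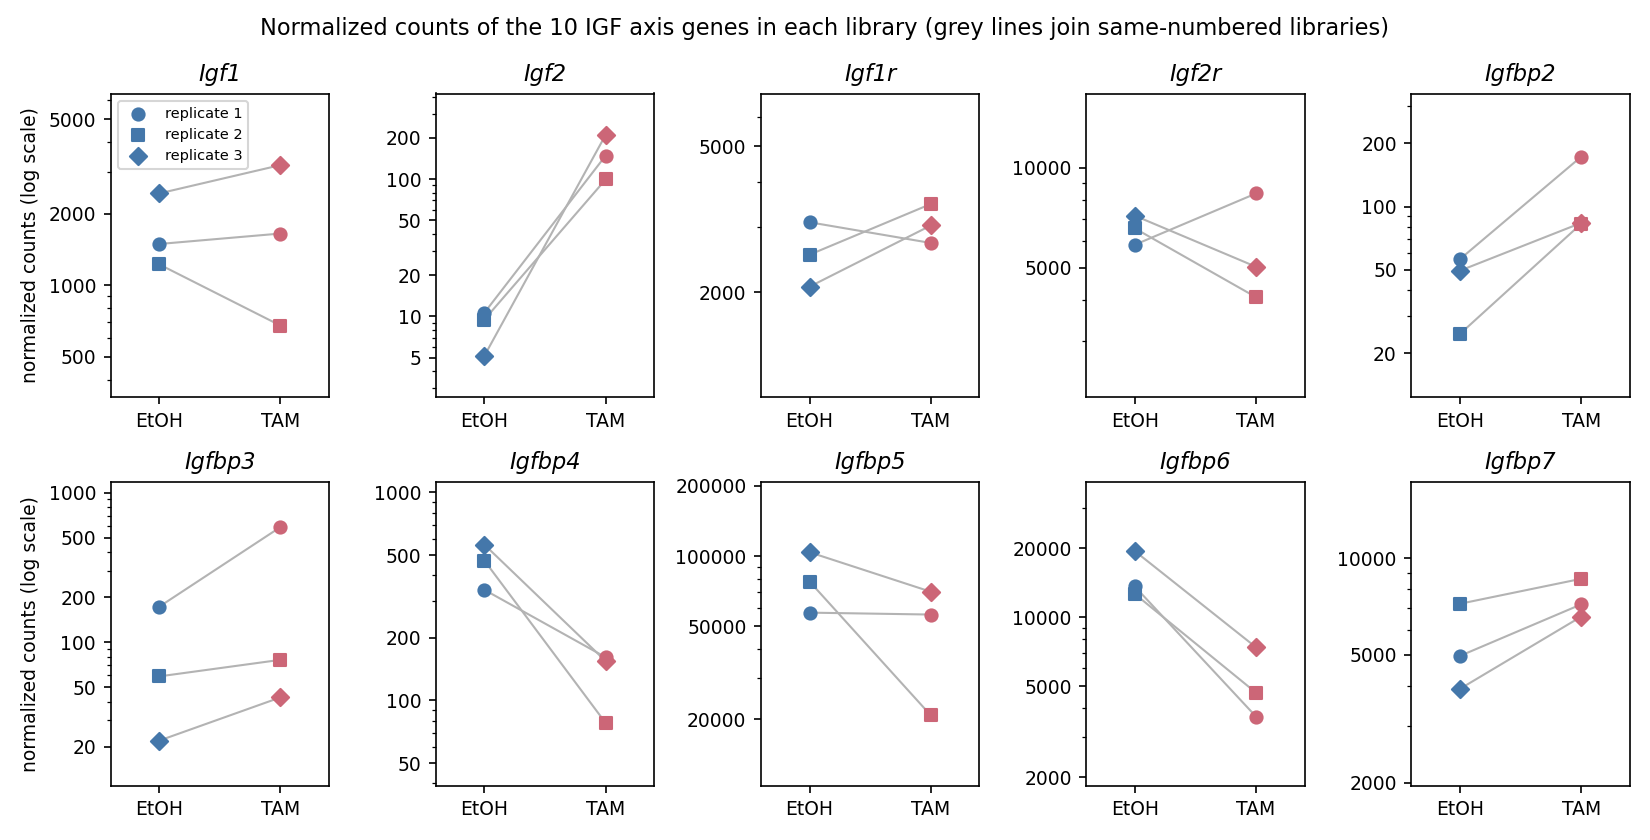
Normalized counts (log scale) of each IGF axis gene in the 3 EtOH (blue) and 3 TAM (red) libraries, with grey lines joining libraries of the same replicate number and a separate scale in each panel. Igf2 and Igfbp2 lie higher and Igfbp4 and Igfbp6 lie lower in all 3 TAM libraries than in any EtOH library, and the other 6 genes overlap.

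Among the ligands Igf2 rose from under 1 c.p.m. to a low level, while Igf1 varied more within than between the groups. Igf2 (ENSMUSG00000048583), the fetal growth factor of the pair, lies on chromosome 7 of mm9, the build of the files, where the annotation places it from 149836673 to 149852721 on the minus strand. It had 10.6, 9.47 and 5.15 normalized counts in EtOH replicates 1, 2 and 3 and 149, 99.7 and 211 in the TAM replicates. Every TAM value was thus far above every EtOH value, and the groups were well apart in each pair. The EtOH values were 0.657, 0.586 and 0.319 c.p.m. and the TAM values 9.20, 6.17 and 13.0 c.p.m., so the gene lay under 1 c.p.m. in each EtOH library. The EtOH mean was 8.41 ± 2.88 (SD, n = 3) and the TAM mean 153 ± 55.7 (SD, n = 3), a ratio of 18.2, and the ratios within the pairs were 14.0, 10.5 and 40.9. The log2 fold change was 4.02 (standard error, SE, 0.43, 95% interval 3.01 to 5.03, adjusted p = 0.0374, limma), number 18 of the 11877 genes from the largest rise. In bulk RNA, a change in the number of cells that express a gene and a change in its RNA per cell cannot be told apart, here and for each difference that follows. When each group mean was first raised to at least 1 c.p.m. the log2 ratio was 3.24, since the EtOH mean is then the floor. Without the block the call of Igf2 needed all 6 libraries, since its limma adjusted p was between 0.0625 and 0.182 with any 1 library left out and 0.0512 without replicate 2, while the log2 fold change stayed between 3.74 and 4.40. Igf2as, on the other strand, covers 1.78% of the exon bases of Igf2, and the strand setting of the counting is not given in the sources used here. The genes whose log2 values followed those of Igf2 most closely were Extl3 and Acpp (Pearson's r = 0.990 for both), Slit3 (0.988), Zfpm1 (0.987) and Pam (0.986). These values are a description over 6 libraries that fall into the 2 groups, and of these genes Acpp passed the threshold, with a log2 fold change of 1.56 (adjusted p = 0.0442, limma).

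Igf1 (ENSMUSG00000020053; chromosome 10 of mm9, 87321010 to 87399792), the main growth factor of the axis after birth, had 1492, 1225 and 2434 normalized counts in EtOH replicates 1, 2 and 3. In the TAM replicates Igf1 had 1651, 677 and 3202 normalized counts, which enclose the EtOH values. The highest library of each group was replicate 3 and the lowest replicate 2. Its log2 fold change was −0.10 (SE 0.55, 95% interval −1.40 to 1.19, adjusted p = 0.960, limma). The sign was not stable, at 0.48 without TAM replicate 2, 0.18 without EtOH replicate 3 and 0.10 as a ratio of floored means. Summed per kilobase of exon, Igf1 and Igf2 came to 152, 125 and 246 normalized counts in the EtOH and 193, 86.4 and 361 in the TAM libraries, with a difference of mean logs of 0.12 (two-sided exact permutation p = 0.9, n = 3 in each group). Igf2 made up 1.27%, 1.38% and 0.381% of this sum in the EtOH replicates and 14.0%, 21.0% and 10.6% in the TAM replicates. Igf1 thus remained the more abundant ligand transcript per length in each library.

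Neither receptor passed the threshold. Igf1r (ENSMUSG00000005533; chromosome 7 of mm9, 75097713 to 75371484), the signalling receptor of both ligands, had 3100, 2529 and 2069 normalized counts in EtOH replicates 1, 2 and 3 and 2722, 3476 and 3038 in the TAM replicates. The groups overlapped, with the TAM value higher in replicates 2 and 3 and lower in replicate 1. Its log2 fold change was 0.28 (SE 0.21, 95% interval −0.21 to 0.76, adjusted p = 0.616, limma). Igf2r (ENSMUSG00000023830; chromosome 17, 12875272 to 12962530), the clearing receptor of IGF2, had 5857, 6564 and 7167 normalized counts in the EtOH replicates and 8360, 4072 and 5028 in the TAM replicates. The TAM libraries held both the highest and the lowest value of Igf2r, with replicate 1 going against the other pairs. The Igf2r log2 fold change was −0.23 (SE 0.29, 95% interval −0.90 to 0.44, adjusted p = 0.775, limma), and 0.00 without replicate 2. Per kilobase of exon the ratio of Igf1r to Igf2r was 1.12, 0.812 and 0.609 in the EtOH replicates and 0.687, 1.80 and 1.27 in the TAM replicates, ranges that overlap.

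**Figure D2:**
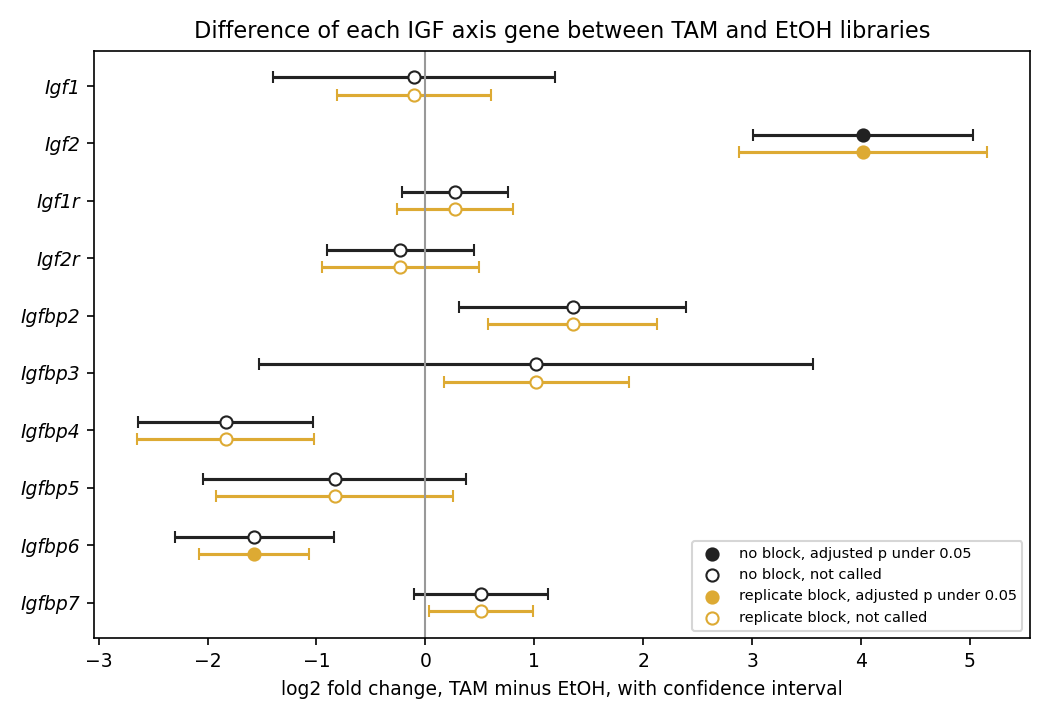
Log2 fold change, TAM minus EtOH, of each IGF axis gene (points) with its 95% interval (bars) from limma without (black) and with (yellow) the replicate block, where a filled point has an adjusted p under 0.05. Igf2 is filled in both fits, at 4.02, and Igfbp6 with the block alone, at −1.57.

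The binding proteins were split, with Igfbp4 and Igfbp6 lower and Igfbp2 higher in every TAM library, while the abundant Igfbp5 and Igfbp7 overlapped between the groups. Igfbp6 (ENSMUSG00000023046), whose protein binds IGF2 in preference to IGF1, lies on chromosome 15 of mm9 from 101974793 to 101979942. It had 13608, 12627 and 19417 normalized counts in EtOH replicates 1, 2 and 3 and 3683, 4682 and 7384 in the TAM replicates. The highest TAM value was below the lowest EtOH value. The means were 15218 ± 3670 (SD, n = 3) and 5250 ± 1915 (SD, n = 3), a mean 2.90 times as high in the EtOH libraries, and the log2 differences in the pairs were −1.89, −1.43 and −1.39. The log2 fold change of Igfbp6 was −1.57 (SE 0.31, 95% interval −2.30 to −0.84, adjusted p = 0.120, limma) without the block. With the replicate block the standard error was 0.20 and the interval −2.08 to −1.06, and Igfbp6 fell at an adjusted p of 0.0407 (limma).

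Igfbp4 (ENSMUSG00000017493; chromosome 11, 98902558 to 98913969) encodes a binding protein that restrains IGF action and is cut by PAPP-A. Its normalized counts were 340, 470 and 561 in EtOH replicates 1, 2 and 3 and 161, 77.9 and 155 in the TAM replicates. All 3 TAM values lay below all 3 EtOH values. The means were 457 ± 111 (SD, n = 3) and 131 ± 46.3 (SD, n = 3), which is 3.48 times as high in the EtOH libraries. The log2 fold change of −1.83 (SE 0.34, 95% interval −2.64 to −1.03) had an unadjusted p of 0.000957 and an adjusted p of 0.103 in limma, and so did not pass over all genes.

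Igfbp2 (ENSMUSG00000039323; chromosome 1, 72871077 to 72899048), another binding protein with a preference for IGF2, was a low gene in these cells. It had 56.2, 24.7 and 49.5 normalized counts in EtOH replicates 1, 2 and 3 and 173, 82.9 and 83.7 in the TAM replicates. The lowest TAM value was above the highest EtOH value, and replicate 1 was the highest of both groups. The log2 fold change of Igfbp2 was 1.35 (SE 0.44, 95% interval 0.31 to 2.39, adjusted p = 0.268, limma). Its neighbour on chromosome 1, Igfbp5 (ENSMUSG00000026185; 72904506 to 72921458, minus strand), was by contrast among the most abundant genes. Igfbp5, whose protein binds the extracellular matrix, had 57252, 77838 and 103928 normalized counts in the EtOH replicates and 56180, 20757 and 70351 in the TAM replicates. The groups overlapped, although the TAM library was lower in each pair, with log2 differences of −0.03, −1.91 and −0.56. For Igfbp5 the log2 difference was −0.83 (SE 0.51, 95% interval −2.04 to 0.37, adjusted p = 0.548, limma), and −0.30 without replicate 2, the pair that differed most.

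Igfbp7 (ENSMUSG00000036256; chromosome 5, 77778265 to 77837070), a relative that binds IGFs with low affinity, had 4966, 7214 and 3922 normalized counts in EtOH replicates 1, 2 and 3. In the TAM replicates Igfbp7 had 7184, 8627 and 6580 normalized counts, each above the EtOH library of its number though the groups overlapped. The log2 fold change was 0.51 (SE 0.26, 95% interval −0.11 to 1.13, adjusted p = 0.458, limma), and with the block the interval was 0.04 to 0.99 (adjusted p = 0.267, limma). Polr2b, on the other strand, overlaps 7.01% of its exon bases. Igfbp3 (ENSMUSG00000020427; chromosome 11, 7106089 to 7113926), the main IGF carrier of the blood, had 173, 59.1 and 22.0 normalized counts in the EtOH replicates and 589, 76.2 and 42.8 in the TAM replicates. The order of the replicates was the same in both groups, and the TAM library was higher in each pair. Without the block the spread within the groups made the Igfbp3 interval the widest of the 10, from −1.53 to 3.56 around a log2 fold change of 1.02 (SE 1.08, adjusted p = 0.731, limma), and without TAM replicate 1 the value was −0.10. With the replicate block the Igfbp3 interval was 0.17 to 1.87 (SE 0.34, adjusted p = 0.232, limma).

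Set per kilobase of exon, so that genes can be compared, the leading genes of the axis were binding proteins. Igfbp6, at 13685 ± 3300 (SD, n = 3) normalized counts per kilobase, and Igfbp5, at 13265 ± 3895 (SD, n = 3), led in the EtOH libraries, at ranks 32 and 35 of the 11874 tested genes with a length. Their ranges overlapped. Igfbp7 followed at 4425 ± 1387 (SD, n = 3) per kilobase, then Igf2r at 692 ± 69.5 (SD, n = 3) and Igf1r at 573 ± 115 (SD, n = 3), which overlapped each other. Below the receptors came Igfbp4 at 194 ± 47.0 (SD, n = 3) and Igf1 at 173 ± 64.0 (SD, n = 3) per kilobase, then Igfbp3 at 27.0 ± 25.1 (SD, n = 3) and Igfbp2 at 23.5 ± 9.0 (SD, n = 3), each pair overlapping within itself. Igf2 was last at 1.53 ± 0.53 (SD, n = 3) per kilobase, rank 11836, with no overlap with Igfbp2.

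In the TAM libraries the 3 abundant binding proteins stood in the order Igfbp5, at 8175 ± 4253 (SD, n = 3) normalized counts per kilobase, Igfbp7 at 6153 ± 867 (SD, n = 3) and Igfbp6 at 4721 ± 1722 (SD, n = 3), and each overlapped its neighbour. Igfbp6 was then at rank 95 and Igfbp7 at rank 70 of all genes, the latter from rank 115 in the EtOH libraries. The receptors again overlapped, with Igf1r at 688 ± 84.6 (SD, n = 3) and Igf2r at 617 ± 238 (SD, n = 3) per kilobase. Igf1 at 186 ± 128 (SD, n = 3), Igfbp3 at 75.4 ± 97.7 (SD, n = 3), Igfbp2 at 61.3 ± 28.0 (SD, n = 3) and Igfbp4 at 55.6 ± 19.6 (SD, n = 3) per kilobase followed in that order and overlapped one another, so that Igfbp4 stood below Igf1, Igfbp3 and Igfbp2 by its mean, where in the EtOH libraries it had stood above them. Igf2, at 27.9 ± 10.1 (SD, n = 3) per kilobase and rank 9803, was still last by its mean but now overlapped Igfbp4.

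**Figure D3:**
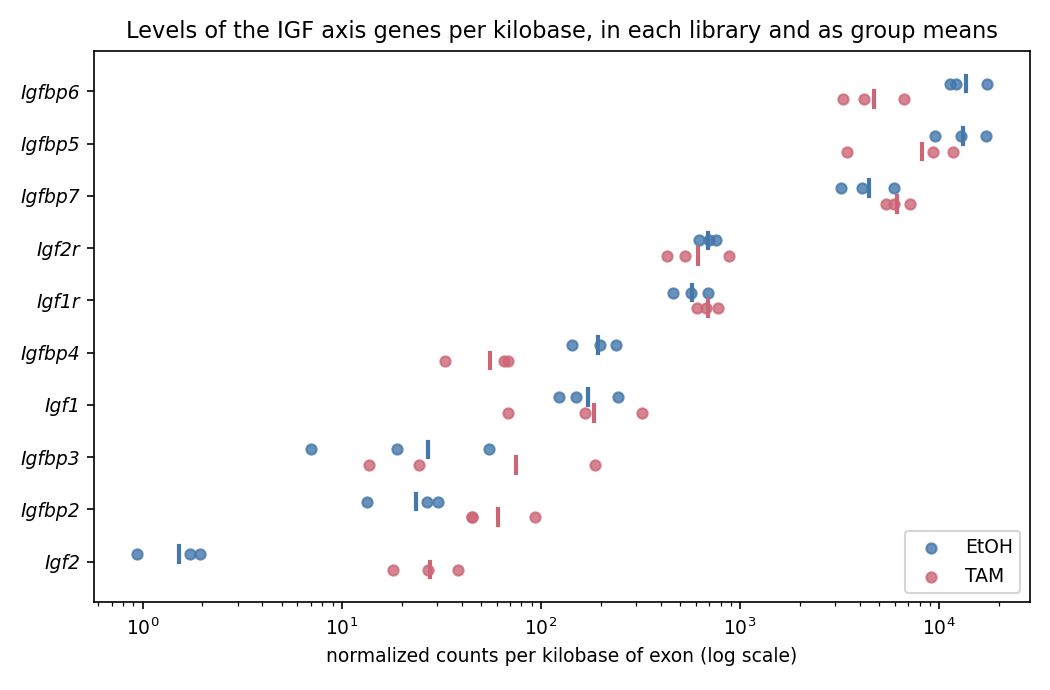
Normalized counts per kilobase of exon (log scale) of the IGF axis genes in each EtOH (blue) and TAM (red) library, with a vertical tick at each group mean, ordered by the EtOH mean. Igfbp5, Igfbp6 and Igfbp7 lie at the top in every library and Igf2 lies lowest in the EtOH libraries, between 0.94 and 1.93.

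The summed level of the 6 binding protein genes was 26094, 30494 and 38271 normalized counts per kilobase in EtOH replicates 1, 2 and 3 and 18938, 14880 and 23903 in the TAM replicates. Each TAM sum lay below each EtOH sum. The means were 31620 ± 6166 (SD, n = 3) and 19240 ± 4519 (SD, n = 3), and the difference of mean logs of −0.73 had a two-sided exact permutation p of 0.1, the smallest that 3 against 3 libraries allow. Over the 3 pairs the exact p was 0.25, the smallest possible there. With equal library sums the difference was −0.613 at an exact permutation p of 0.2, so the full separation of the groups depended on the scaling. Divided by the summed ligands, the binding protein sum was 171, 244 and 155 in the EtOH replicates and 97.9, 172 and 66.2 in the TAM replicates, and these ratios overlapped, while the TAM ratio was lower in each of the 3 pairs.

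Within that sum, Igfbp6 made up 46.9%, 37.2% and 45.6% in EtOH replicates 1, 2 and 3 and 17.5%, 28.3% and 27.8% in the TAM replicates, a difference of −18.7 percentage points in the means. Igfbp7 made up 15.7%, 19.5% and 8.45% in the EtOH and 31.3%, 47.8% and 22.7% in the TAM replicates, a difference of 19.4 percentage points. Neither gene's shares overlapped between the groups. Igfbp5 held 36.5%, 42.5% and 45.2% of the sum in the EtOH and 49.4%, 23.2% and 49.0% in the TAM replicates, a difference of −0.87 points that was 7.78 points without TAM replicate 2. The shares of Igfbp4 were between 0.552% and 0.653% in the EtOH and between 0.222% and 0.361% in the TAM libraries, and those of Igfbp2 between 0.0439% and 0.117% and between 0.190% and 0.495%, both without overlap. For Igfbp3 the shares were 0.0183% to 0.211% and 0.0572% to 0.993%. By two-sided exact permutation tests over libraries the p was 0.1 for Igfbp2, Igfbp4, Igfbp6 and Igfbp7 (0.15 when adjusted over the 6 genes), 0.6 for Igfbp3 and 1.0 for Igfbp5, and no value under 0.1 was possible. Shares of 1 sum cannot move independently of each other.

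**Figure D4:**
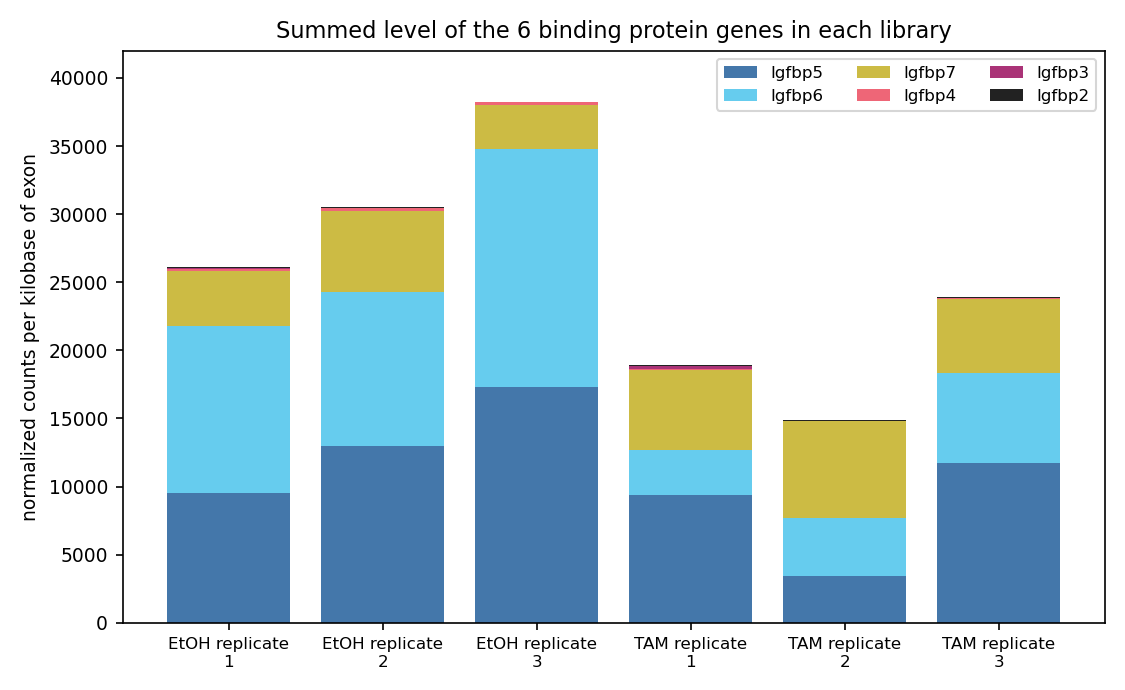
Stacked bars of the normalized counts per kilobase of exon of the 6 binding protein genes in each library. The bars reach 26094 to 38271 in the EtOH and 14880 to 23903 in the TAM libraries, and the Igfbp6 segment is at least 37.2% of each EtOH bar and at most 28.3% of each TAM bar.

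The genes that act around the axis were read from 6 lists. In the list of IGFBP proteases and their regulators, 0 of the 7 genes tested passed an adjusted p of 0.05 with or without the block (limma). With a raw p below 0.05, 2 were higher, beside 6.67% of all genes tested, and 0 lower, beside 6.7%. Pappa, the protease PAPP-A that cuts IGFBP4 and IGFBP5, had 6368, 1870 and 3367 normalized counts in EtOH replicates 1, 2 and 3 and 16302, 10869 and 9586 in the TAM replicates. Each TAM value was above each EtOH value, and the log2 fold change was 1.80 (SE 0.45, adjusted p = 0.183, limma). Its relative Pappa2 had 14.7, 10.4 and 6.94 against 53.5, 24.3 and 22.2 normalized counts, also without overlap, with a log2 fold change of 1.50 (adjusted p = 0.290, limma). Adam9, a membrane metalloprotease, had 3321, 3602 and 3150 against 3963, 5046 and 3776 normalized counts (log2 fold change 0.33, adjusted p = 0.487, limma). The median of the list was 0.38 on the log2 scale.

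Of the 8 other ligand, carrier and receptor genes only Insr, the insulin receptor, passed the filter, with a log2 fold change of 0.17 (adjusted p = 0.840, limma), and Igfbp1, Ins1 and Ins2 were listed at 0 in every library. In the list of receptor adaptors and PI3K-AKT signalling, 0 of 30 genes tested passed an adjusted p of 0.05 in limma without or with the block. A raw p below 0.05 was reached by 3 higher genes, beside 6.67% of all genes tested, and 1 lower gene, beside 6.7%. The median log2 fold change of the list was −0.00486. Grb14, an adaptor that inhibits the insulin receptor kinase, had 526, 391 and 147 normalized counts in EtOH replicates 1, 2 and 3 and 1860, 1074 and 1164 in the TAM replicates. Its groups did not overlap, and the log2 fold change was 2.08 (SE 0.48, adjusted p = 0.155, limma). Ptpn1, a tyrosine phosphatase that acts on the same receptors, had 813, 665 and 645 against 1126, 1045 and 1195 normalized counts (log2 fold change 0.67, adjusted p = 0.183, limma). Pik3r2, a regulatory subunit of PI3K, had 1855, 1557 and 2426 against 1356, 1182 and 1332 normalized counts (log2 fold change −0.57, adjusted p = 0.295, limma).

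The 3 IGF2 mRNA binding proteins, which bind Igf2 and other transcripts, had log2 fold changes of 0.56 for Igf2bp3 (adjusted p = 0.592), −0.38 for Igf2bp2 (0.687) and 0.02 for Igf2bp1 (0.981), all from limma. None of the 3 had a raw p below 0.05 with or without the block. In the list of FoxO target genes, whose transcription rises when AKT is low, 0 of 13 tested passed an adjusted p of 0.05 in limma without or with the block. With a raw p below 0.05, 2 were higher, beside 6.67% of all genes tested, and 2 lower, beside 6.7%. The median log2 fold change of this list was −0.31. Klf15, a zinc finger transcription factor, had 149, 214 and 316 normalized counts in EtOH replicates 1, 2 and 3 and 95.0, 41.0 and 42.8 in the TAM replicates (log2 fold change −1.95, adjusted p = 0.145, limma). Fbxo32, a ubiquitin ligase subunit, had 1008, 1404 and 1108 against 1576, 1880 and 2156 normalized counts (log2 fold change 0.67, adjusted p = 0.240, limma). Bcl6, a transcriptional repressor, had a log2 fold change of −0.67 (adjusted p = 0.304, limma). Over the 13 genes tested, 3 log2 fold changes were positive and 10 negative, beside 5487 positive and 6390 negative over all genes tested. This lean rested on replicate 2. Over replicates 1 and 3 alone, Ccng2, Pik3ip1, Sesn1, Sesn3, Irs2 and Cdkn1b also had higher mean logs in the TAM libraries. Bcl6, Cited2, Gadd45a and Klf15 stayed lower. Pik3ip1, for example, had 611, 675 and 766 normalized counts in EtOH replicates 1, 2 and 3 and 693, 115 and 698 in the TAM replicates.

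Imprinted genes were listed because Igf2 is imprinted. Of the 28 listed genes 19 were found by name and 11 were tested. H19, Meg3 and Igf2as were among those not found, so they could not be analysed. Without the block 0 passed an adjusted p of 0.05 (limma). With a raw p below 0.05, 1 was higher, beside 6.67% of all genes tested, and 1 lower, beside 6.7%. With the replicate block 1 passed, Plagl1, while a raw p below 0.05 was reached by 0 genes higher, beside 8.64% of all genes, and by 5 genes lower, beside 8.32%. The median log2 fold change of the 11 genes was −0.61. Plagl1, a zinc finger transcription factor, had 865, 694 and 1639 normalized counts in EtOH replicates 1, 2 and 3 and 90.4, 97.2 and 293 in the TAM replicates. All TAM values were below all EtOH values, with a log2 fold change of −2.85 (SE 0.52, adjusted p = 0.103, limma), and with the block Plagl1 fell with a standard error of 0.21 (adjusted p = 0.0165, limma). The other genes named for this list, Nnat and Sgce, had log2 fold changes of 0.95 (adjusted p = 0.343, limma) and −0.57 (adjusted p = 0.379, limma).

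**Figure D5:**
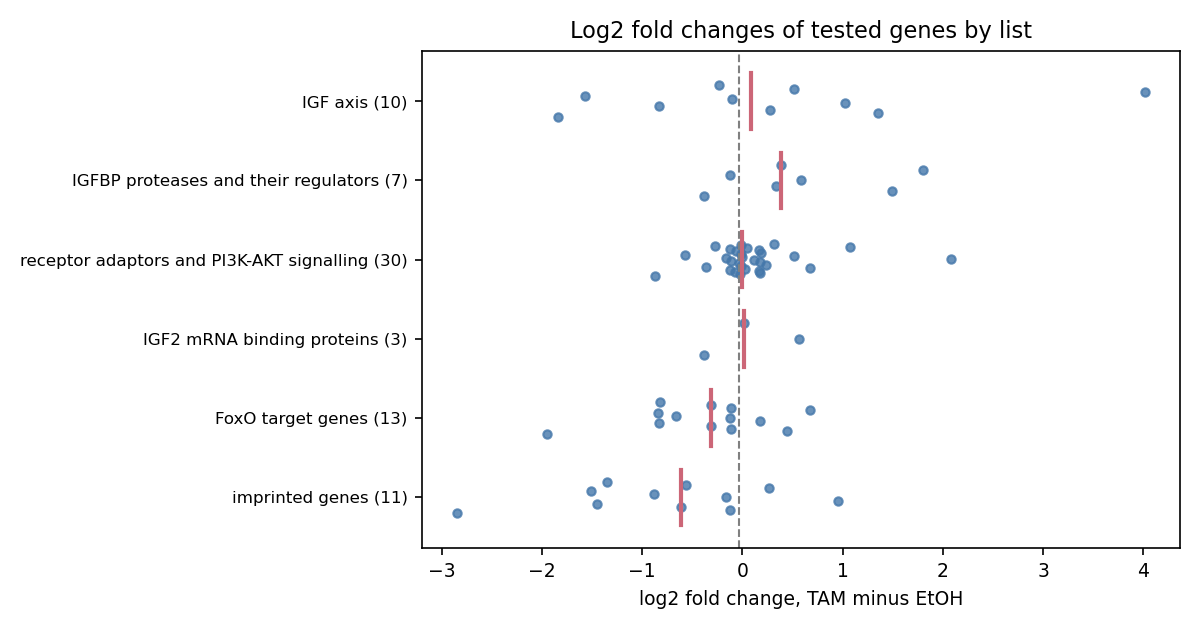
Log2 fold change, TAM minus EtOH, of each tested gene (points, spread vertically for visibility alone) of the IGF axis and of 5 related lists, with the number of tested genes in brackets, a red line at each list's median and a dashed line at the median of all genes tested (−0.03). Igf2 is the point at 4.02 and Plagl1 the point at −2.85, and the list with Insr as its 1 tested gene is not drawn.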

How the data were processed

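The authors mapped reads of poly(A) RNA to mm9 with TopHat, counted them per gene with HTSeq and used edgeR with TMM normalization, and no versions are given in the sources used here. The signal deposited by the authors is 1 table of normalized counts for 22162 genes and 6 libraries. Its scaling is not stated and most values are not whole, so no count model could be used, and read totals and counting errors are not known for every library.

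Libraries were grouped by their titles. Genes with at least 16.2 normalized counts (1 c.p.m. of the mean library sum) in at least 3 libraries were tested with limma 3.58.1 in R 4.3.3 on log2(value + 1) with an intensity trend, two-sided, with Benjamini-Hochberg adjustment over 11877 genes and a threshold of 0.05. The fit was run on simulated data with known fold changes and a set spread between libraries, which was not estimated from these genes. The simulation does not measure power or false calls in these data. Replicate numbers come from the titles, and the sources do not say what they mean. Libraries of 1 number shared their deviation from the mean of their group, with Pearson's r across genes of 0.241, 0.287 and 0.422, against −0.31 to 0.0374 for other pairs. Deviations cancel within each group, so the lower values of the other pairs follow in part from these and are no separate support. Calls with the block rest on taking the numbers to pair the libraries. Sums and shares per kilobase used exon unions of the mm9 annotation and exact permutation tests. Start sites and promoter sequences came from RefSeq on GRCm38.p6, and no coordinates were converted between builds. Python 3.11.15 was used with pandas 2.3.3 for tables and with matplotlib 3.10.9 for plots.

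The members, the pathway and marker lists and the tests were chosen with earlier results of these data known. All 10 members were named, and in each pathway list the genes that passed the threshold and otherwise those with the smallest p until 3 were named. Alternatives were the replicate block, equal library sums, median-ratio scaling, other filters and pseudocounts, library quality weights and leaving out libraries. Leaving out both libraries of replicate 2 and the ratio of floored means were chosen after seeing the data.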

Additional observations from a re-analysis of the deposited data

How the results depend on the processing

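With 3 libraries a group, precision is set by the spread between libraries, and Igf2 in the EtOH libraries rests on few reads. Of 303 alternative values, 248 kept their direction and side of the threshold, or, for counts, stayed within 1.5 times. The replicate block gave 119 genes higher, 73 lower and 2 IGF axis genes past the threshold, while 7 of the 10 differed in the same direction in every pair. It changed no other call of the 10 genes. Library quality weights gave 386 genes higher and 356 lower and 3 IGF axis genes (Igf2, Igfbp4 and Igfbp6). Without a filter 12 genes were higher and 5 lower. With at least 10 in every library 4 were lower and 0 IGF axis genes passed (limma), with 3 at a raw p below 0.05, since Igf2 was not among the genes tested. With libraries left out, over the same 11877 genes, 0 to 7 genes were higher, 0 to 10 were lower, 0 to 0 IGF axis genes passed and 4 to 6 did not overlap, beside 24.8% to 54.3% of all genes. Of the 10 genes, 3 to 5 then had a raw p below 0.05, beside 8.23% to 20.3% of all genes.

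The log2 fold change of Igf1 was 0.0081 with equal library sums, 0.49 with quality weights, 0.10 as a ratio of floored means and −0.64 to 0.48 with libraries left out. That of Igf2r reached 0.0010 without replicate 2 (from −0.52), and that of Igfbp3 ran from −0.10 to 1.78. The ligand sum ran from −0.373 to 0.659 on the log2 scale, at −0.0889 without EtOH replicate 2 and −0.373 without TAM replicate 3. The share of Igfbp5 ran from −5.3 to 8.32 percentage points, at 1.02 without EtOH replicate 3 and 7.78 without TAM replicate 2. The causes were not tested. Igf2 kept a log2 fold change of 3.10 to 4.49 in all 14 alternatives that gave a test, with an adjusted p of 0.00348 to 0.182, and passed in 7. Scaling to equal library sums moved the median of all genes from −0.03 to 0.08, a shift that applies to each fold change alike.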
